A study of Mus musculus with 24 samples.

Results

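The effect of blocking SUMO conjugation was measured in 3T3-L1 cells at day 7 after adipogenic induction, when the cultures hold mature adipocytes. The members are the 6 libraries of day 7, chosen by treatment and day from the sample titles, out of the 24 libraries of a time course over days -2, 1, 3 and 7. At day 7, 3 biological replicates (A, B and C) had received the solvent DMSO (dimethyl sulfoxide) and 3 (A, B and C) had received 0.5 μM ML-792. All 6 came from the same line and had been induced with dexamethasone, IBMX and insulin, then kept in insulin from day 3, and all were given 100 μM 4-thiouridine for 45 min before harvest. The labels do not state on which day ML-792 was first added for these libraries. Each library gives total reads, which count the polyadenylated RNA present, and labelled reads, which carry at least 1 T to C conversion. Labelled reads stand for RNA made with 4-thiouridine during the labelling, with a background of sequencing errors and variants among them.

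SUMO is a small ubiquitin-like protein that is attached to lysines of target proteins by the E1 enzyme SAE1/SAE2, the E2 enzyme UBC9 and E3 ligases, and removed by SENP proteases. Many of its targets are transcription factors, co-regulators and chromatin proteins, and attachment often lowers the activity of a factor at its genes. ML-792 occupies the E1 enzyme, so no new SUMO is activated. 3T3-L1 is a mouse fibroblast line of committed pre-adipocytes. Once induced, the cells pass through C/EBP beta and delta to PPARG and C/EBP alpha, fill with lipid droplets and secrete adipokines. A line in culture lacks the vessels and immune cells of adipose tissue, and it is a model of the adipocyte alone.

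The 6 libraries held 14434920 to 19437390 total reads and 115709 to 186237 labelled reads over all entries. Markers of mature adipocytes were abundant in all of them: the 10 listed genes summed to between 702800 and 820700 normalized reads in DMSO and between 983000 and 1025000 in ML-792. Markers of other cell types were low. The 9 endothelial markers summed to 4.55 to 17.7 normalized reads and the 10 macrophage and leukocyte markers to 129.4 to 196.9, with Ptprc and Tyrobp at 0 in every library. The muscle markers summed to 102.8 to 552.7, mostly Des, with Myod1, Myf5 and Pax7 at 0. The bone and cartilage markers summed to 1257 to 3547, mostly Sox9. Both B libraries stood apart: the first principal component of total reads (46.5% of the variance) separated DMSO from ML-792 and the second (21.1%) separated letter B, at 41.1 in DMSO and 34.5 in ML-792, from the other libraries, which lay between -26.5 and -14.6. Counts that lead a paragraph below are therefore also given without both B libraries, an alternative chosen after seeing the data.

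ML-792 changed the total RNA of day 7 adipocytes in both directions. Of 13274 genes tested, 843 (6.35%) were higher and 723 (5.45%) were lower in ML-792 at an adjusted p under 0.1 (edgeR quasi-likelihood test, Benjamini-Hochberg adjustment over all entries), and the median log2 fold change over all genes was 0.01. Without both B libraries there were 536 higher and 341 lower, and with an absolute log2 fold change above 1 there were 458 and 334. The shares of 6.35% and 5.45% are those to set beside the counts of each gene list in total reads at day 7 below. Counts of the difference from day 3 have shares of their own, given there. Values are normalized reads, given in the order A, B and C, and they compare samples within a gene, not genes with each other. In a bulk culture, fewer cells of a type and less RNA per cell cannot be told apart, which holds for every gene that follows.

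The genes with the highest fold in total reads included enzymes of lipid and drug oxidation. Cyp4a10, which hydroxylates fatty acids, had 0, 2.082 and 3.412 normalized reads in DMSO and 486.3, 162.4 and 253.9 in ML-792, a log2 fold change of 7.27 (SE 0.80, adjusted p = 4.76e-06). It was close to absent in all DMSO libraries and present in all ML-792 libraries. It belongs to a family of close paralogs, so reads may be shared with them. Gsta3, a glutathione transferase, had 102.3, 93.68 and 73.93 in DMSO and 2069, 1615 and 1637 in ML-792 (log2 fold change 4.30, SE 0.28, adjusted p = 1.26e-09). Cyp2b10, a cytochrome P450 that nuclear receptors induce, had 23.6, 49.96 and 40.95 in DMSO and 733.1, 688.9 and 577 in ML-792 (4.12, SE 0.38, adjusted p = 1.01e-07). The groups did not overlap for any of these. Cyp4b1 (5.32), the phosphodiesterase Pde11a (4.79), the potassium channel Kcnk2 (4.55), the fatty acyl reductase Far2 (3.97) and Hmcn2 (3.81) were also among the highest. Chil3, a chitinase-like secreted protein, had 3 reads in all DMSO libraries and 241 in all ML-792 libraries, a ratio of 93.8 per unit of depth (exact 95% counting interval 31.7 to 458).

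The leptin gene Lep was also among the highest. It encodes the adipokine that reports fat stores to the brain, and it had 24.73, 21.86 and 52.32 normalized reads in DMSO and 539.1, 394.6 and 471.1 in ML-792 (log2 fold change 3.83, SE 0.37, adjusted p = 4.2e-07). Every ML-792 library was above every DMSO library.

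At the other end, Ghrh, which encodes growth hormone-releasing hormone and is known for its expression in the hypothalamus, had 1327, 1517 and 1920 normalized reads in DMSO and 33.16, 15.23 and 44.8 in ML-792 (log2 fold change -5.68, SE 0.48, adjusted p = 3.09e-08). The transporter gene Slc22a20 fell by 5.73 and Mreg, linked to organelle transport, by 5.29 on the log2 scale. Retnla, a secreted resistin-like protein, had 514.8, 622.5 and 571 in DMSO and 15.96, 19.03 and 54.31 in ML-792 (-4.27, SE 0.33, adjusted p = 4.85e-09). Bco1, which cleaves beta-carotene to retinal, had 952, 939.9 and 954.3 in DMSO and 61.4, 83.74 and 42.09 in ML-792 (-3.92, SE 0.39, adjusted p = 2.39e-07). The prostaglandin D synthase gene Ptgds (-3.14) was lower as well. None of these genes had overlapping groups.

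**Figure D1:**
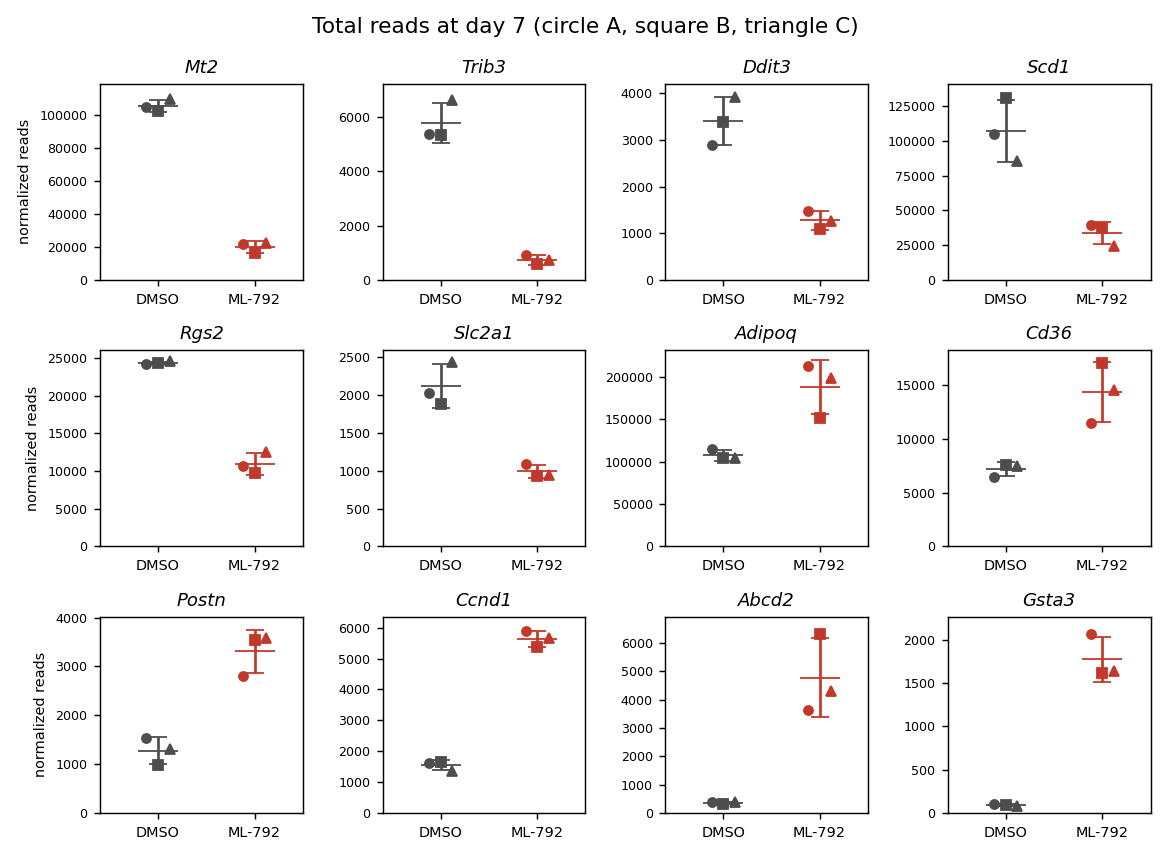
Normalized total reads of 12 genes in the 6 libraries of day 7, on a linear axis for each gene. Circles, squares and triangles are replicates A, B and C, the bar is the mean and the whisker the SD (n = 3); in each panel the groups do not overlap, with the first 6 genes lower and the last 6 higher in ML-792.

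Genes of the integrated stress response that were called in the main fit were all lower. In this pathway ATF4, translated when eIF2 is phosphorylated, drives genes of amino acid supply and the pro-apoptotic factor CHOP, while the endoplasmic reticulum (ER) branches of ATF6 and XBP1 drive chaperones. Of 30 listed ATF4 and unfolded protein response genes, all tested, 14 were lower and 0 higher in total reads, against 5.45% and 6.35% of all genes tested. The median log2 fold change of the list was -0.49 against 0.01 over all genes. The count of lower genes was 7 without both B libraries and 10 to 13 in the fits that left out 1 library, the fewest without ML-792 B. With the replicate letter as a block, a fit with more calls over all genes as well, 18 were lower and 1 higher. Trib3, a pseudokinase induced by ATF4 and CHOP, had 5369, 5337 and 6621 normalized reads in DMSO and 930.9, 571 and 723.7 in ML-792 (log2 fold change -2.96, SE 0.22, adjusted p = 3.24e-09). Atf3, a stress-induced transcription factor, had 275.4, 246.7 and 476.6 in DMSO and 93.33, 48.21 and 97.75 in ML-792 (-2.06, SE 0.36, adjusted p = 0.000594). Ddit3, which encodes CHOP, had 2892, 3386 and 3922 in DMSO and 1475, 1080 and 1264 in ML-792 (-1.42, SE 0.17, adjusted p = 3.96e-06). For all of these the groups did not overlap.

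Other ATF4 targets moved in the same direction. The glutathione-degrading Chac1 had 1490, 1326 and 1570 normalized reads in DMSO and 648.4, 346.4 and 669.3 in ML-792 (log2 fold change -1.40, SE 0.37, adjusted p = 0.0217), and its call was lost without ML-792 B (adjusted p = 0.124). Herpud1, of ER-associated degradation (-1.28), the amino acid transporter Slc7a5 (-1.31), the cystine transporter Slc7a11 (-1.24), asparagine synthetase Asns (-0.63) and Mthfd2 of one-carbon metabolism (-0.59) were lower too. The call of Slc7a11 was lost in 5 of the 6 fits that left out one library, with an adjusted p up to 0.266. Hspa5, the main ER chaperone, had 27220, 39940 and 22950 in DMSO and 19780, 17100 and 16820 in ML-792 (-0.75, SE 0.19, adjusted p = 0.0136). DMSO B was the highest of its libraries, and the call was lost without it (adjusted p = 0.138). Calr, the other of the most abundant members, was not called.

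To show the promoter elements by which this pathway is known to act, the promoters of list members were read from RefSeq (GRCm38.p6, the patch level of mm10), from 250 bases before to 50 bases after each gene's start. A promoter was found for 10344 of the 13274 genes tested and for 28 of the 30 list members. The C/EBP-ATF composite element, searched as TGATGNAA on both strands, was in 302 of all promoters (2.92%), in 34 of 581 promoters of genes lower in total reads (5.85%) and in 18 of 638 of genes higher (2.82%). In the list it was in 6 of 28 (21.4%), and all 6 were among the 13 lower members with a promoter (46.2%). These 6 are shown as 80 bases each, 5′ to 3′ on the gene's strand, with the match in capitals and a match on the other strand shown as its reverse complement.
Trib3, chr2:152344011-152344090, minus strand: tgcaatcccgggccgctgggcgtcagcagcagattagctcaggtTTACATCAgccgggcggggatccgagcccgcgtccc
Atf3, chr1:191183400-191183479, minus strand: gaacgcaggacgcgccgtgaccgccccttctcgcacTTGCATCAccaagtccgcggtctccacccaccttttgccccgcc
Chac1, chr2:119351013-119351092, plus strand: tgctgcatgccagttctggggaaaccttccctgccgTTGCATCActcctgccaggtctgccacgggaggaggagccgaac
Herpud1, chr8:94386281-94386360, plus strand: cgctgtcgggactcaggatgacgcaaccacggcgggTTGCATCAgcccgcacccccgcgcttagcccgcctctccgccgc
Asns, chr6:7693189-7693268, minus strand: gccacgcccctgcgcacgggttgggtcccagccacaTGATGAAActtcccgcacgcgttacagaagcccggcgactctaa
Slc7a11, chr3:50443627-50443706, minus strand: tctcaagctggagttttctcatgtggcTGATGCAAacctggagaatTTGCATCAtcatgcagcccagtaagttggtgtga
The ER stress response element, searched on both strands as CCAAT and CCACG parted by any 9 bases, was in 17 of all promoters (0.164%) and in 5 of the 28 of the list. Of those 5, Hspa5 was lower, while Hsp90b1, Pdia6, Calr and Creld2 were not called. The Hspa5 promoter is shown over 120 bases with its match in capitals.
Hspa5, chr2:34771974-34772093, plus strand: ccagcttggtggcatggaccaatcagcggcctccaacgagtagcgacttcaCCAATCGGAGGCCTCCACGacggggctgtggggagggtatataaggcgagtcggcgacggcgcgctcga
A match is a description of the letters, and binding was not measured in these libraries.

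The metallothioneins Mt1 and Mt2, small cysteine-rich proteins that bind zinc and are induced by metals and glucocorticoids, fell from a high level. Mt1 had 176600, 228900 and 187300 normalized reads in DMSO and 59890, 39550 and 55950 in ML-792 (log2 fold change -1.93, SE 0.23, adjusted p = 3.33e-06). Mt2 had 104800, 102000 and 109400 in DMSO and 21410, 16010 and 22430 in ML-792 (-2.40, SE 0.17, adjusted p = 1.86e-09). No ML-792 library reached the lowest DMSO library for either gene. Of 9 tested genes of metallothioneins and zinc handling 4 were lower and 0 higher, against 5.45% and 6.35% of all genes tested. Without both B libraries 2 were lower, Mt1 and Mt2. The other pair were the zinc importer Slc39a4 (-2.56, adjusted p = 0.0868) and the exporter Slc30a4 (-0.51, adjusted p = 0.0865), whose calls were lost in 5 and 6 of the 6 fits that left out one library.

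Metal response elements, the sites of the zinc sensor MTF1, were searched as TGCACNC and TGCGCNC on both strands. One form or the other was in 4121 of all promoters (39.8%), in 244 of 581 promoters of lower genes (42%) and in 254 of 638 of higher genes (39.8%), so the element is common in these windows. Of the other elements searched, the cAMP response element TGACGTCA was in 3.54% of all promoters, 2.51% of those of higher genes and 3.44% of those of lower genes. The AP-1 element TGANTCA was in 6.51%, 8.15% and 9.12%, and the PPAR direct repeat in 3 promoters of all, 0 of higher genes and 2 of lower genes. The Mt1 promoter held 3 matches and the Mt2 promoter 4, and both are shown whole, 300 bases on the plus strand of chromosome 8, with the matches in capitals.
Mt1, chr8:94178839-94179138, plus strand: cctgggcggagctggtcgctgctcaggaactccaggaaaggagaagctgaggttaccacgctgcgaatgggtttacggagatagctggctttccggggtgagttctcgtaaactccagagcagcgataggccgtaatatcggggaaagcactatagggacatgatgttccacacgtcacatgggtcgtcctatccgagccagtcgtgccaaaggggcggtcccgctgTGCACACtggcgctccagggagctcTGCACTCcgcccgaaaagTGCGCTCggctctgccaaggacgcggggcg
Mt2, chr8:94172368-94172667, plus strand: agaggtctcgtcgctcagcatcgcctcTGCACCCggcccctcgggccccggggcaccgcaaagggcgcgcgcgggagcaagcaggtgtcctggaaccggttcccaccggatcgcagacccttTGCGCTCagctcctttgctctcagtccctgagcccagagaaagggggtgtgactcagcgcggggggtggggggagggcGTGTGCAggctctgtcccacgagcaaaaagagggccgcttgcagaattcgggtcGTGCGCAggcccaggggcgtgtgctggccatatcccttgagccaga

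Genes that answer to glucocorticoids and cAMP, the inducers of the differentiation medium that was replaced at day 3, were lower more often than higher. Of 22 tested 8 were lower and 2 higher, against 5.45% and 6.35% of all genes tested, with a median log2 fold change of -0.49. The counts were 5 and 1 without both B libraries, and 5 to 7 were lower when one library was left out, the fewest without ML-792 A or DMSO C. Besides the metallothioneins, the lower ones included the kinase gene Sgk1 (-0.54), the mTOR inhibitor Ddit4 (-1.18), the cAMP phosphodiesterase Pde4d (-1.16) and Pck1, the enzyme of glyceroneogenesis (928.3, 555.8 and 1001 normalized reads in DMSO and 440.9, 218.2 and 293.3 in ML-792, log2 fold change -1.38, adjusted p = 0.0163). Tsc22d3 (0.02, adjusted p = 0.976) and Fkbp5 (-0.22, adjusted p = 0.46), glucocorticoid targets that are often used as readouts, were not called. Nr4a1, an orphan nuclear receptor induced by cAMP, went the other way, with 991.3, 522.5 and 1001 in DMSO and 2203, 2002 and 2236 in ML-792 (1.36, SE 0.22, adjusted p = 0.00025). The other higher gene was Cebpd (0.49, SE 0.16, adjusted p = 0.0731).

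Among 10 markers of the mature adipocyte, 4 were higher, 1 was lower and 5 were not called, with a median log2 fold change of 0.17. The shares over all genes tested were 6.35% higher and 5.45% lower. With both B libraries left out 3 markers were higher, and between 1 and 3 when one library was left out, the fewest without DMSO C. Adipoq, which encodes adiponectin, had 115200, 104300 and 103800 normalized reads in DMSO and 212800, 152000 and 199300 in ML-792 (0.80, SE 0.23, adjusted p = 0.0283), with the call lost without ML-792 A or DMSO C (adjusted p up to 0.116). Fabp4, the cytosolic fatty acid carrier, had 156100, 152000 and 135700 in DMSO and 229000, 276400 and 268000 in ML-792 (0.80, adjusted p = 0.0737), with the call lost in 5 of 6 such fits. Both genes were higher in every ML-792 library than in any DMSO library. Cfd, the complement factor adipsin, was higher (0.88, adjusted p = 0.0477, lost in 4 of 6 fits), and so was the fatty acid translocase Cd36 (6504, 7616 and 7491 in DMSO, 11490, 17100 and 14590 in ML-792, 1.00, SE 0.22, adjusted p = 0.00525). Cidec (73820 mean normalized reads in DMSO and 74630 in ML-792) and Lpl (323800 and 327400) were not called.

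Slc2a4, the insulin-responsive glucose transporter GLUT4, was the marker that fell, with 3199, 3242 and 2779 normalized reads in DMSO and 1372, 996 and 1067 in ML-792 (log2 fold change -1.42, SE 0.24, adjusted p = 0.000331). Among 25 genes of insulin signalling and glucose use, 4 were higher and 4 lower, also without both B libraries. The higher ones were the insulin receptor substrate Irs1 (1.24), Pik3r1 (0.92), the GLUT4 traffic regulator Tbc1d4 (0.51) and Pfkfb3 (0.75). The lower ones, besides Slc2a4, were the basal glucose transporter Slc2a1 (2031, 1886 and 2438 in DMSO, 1092, 931.3 and 945 in ML-792, -1.10, SE 0.15, adjusted p = 1.71e-05) and the glycolytic enzymes Tpi1 (-0.91) and Ldha (-0.84). The groups overlapped for none of the lower ones.

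Enzymes of fatty acid synthesis split. Of 24 genes of lipogenesis and desaturation 6 were lower and 2 higher, with a median log2 fold change of -0.14. Leaving out both B libraries gave 3 lower and 3 higher and a median of 0.05, and 3 to 6 were lower when one library was left out, the fewest without DMSO B, ML-792 B or ML-792 C. The desaturase Scd1, which makes oleate, had 105100, 130500 and 85630 normalized reads in DMSO and 39360, 37590 and 24500 in ML-792 (-1.66, SE 0.22, adjusted p = 2e-05), while its paralog Scd2 was not called (-0.34, adjusted p = 0.157). The fatty acid synthase gene Fasn was lower (-0.81, adjusted p = 0.0532), and so were the elongase Elovl5 (-0.76) and the desaturase-like Fads3 (-1.02). Thrsp, a lipogenic regulator, had 14630, 33970 and 12970 in DMSO and 7681, 7977 and 7133 in ML-792 (-1.43, adjusted p = 0.0603), and its call was lost without DMSO B and in 3 other such fits. The elongases Elovl3 (584.4, 569.4 and 671.1 in DMSO, 3570, 2751 and 2092 in ML-792, 2.21, SE 0.33, adjusted p = 0.000105) and Elovl6 (1.35, adjusted p = 0.00183) were higher. Srebf1, the factor that drives these enzymes, was higher (0.84, adjusted p = 0.00526).

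Genes that take up, store and release fatty acids changed in both directions. Of 17 genes of fatty acid uptake and binding 5 were higher and 2 lower, 3 and 2 without both B libraries, and 3 to 5 were higher with one library left out. Besides Cd36 and Fabp4, the acyl-CoA synthetase Slc27a1 rose from 446.2, 345.6 and 344.6 normalized reads to 1835, 1407 and 1297 (log2 fold change 2.00, SE 0.23, adjusted p = 2.43e-06), and Acsl5 by 1.04. Of 19 genes of triglyceride synthesis 4 were higher and 4 lower (4 and 2 without both B libraries). The higher ones included Mogat1 (2.93) and the glycerol channel Aqp7 (1.90), and the lower ones Lpin3 (-1.82, lost in 5 of 6 fits that left out one library) and Pck1. Dgat2, of the last acylation step, was lower (-0.59, adjusted p = 0.0735), and Gpd1 was higher (0.71, adjusted p = 0.0292, lost in 3 of 6 such fits). Of 16 lipid droplet proteins 3 were higher, with Hsd17b11 (0.96) leading, and 2 lower, against 1 and 2 without both B libraries. The lower pair were Cidea, a droplet protein of thermogenic fat, with 738.4, 958.7 and 866.7 in DMSO and 254.2, 192.9 and 165.6 in ML-792 (-2.06, SE 0.40, adjusted p = 0.00134), and Hilpda (-0.86). Of 20 lipolysis genes 3 were higher and 3 lower, and the beta-3 adrenergic receptor Adrb3 rose by 1.49 (adjusted p = 0.0011) while the lipases Pnpla2 and Lipe were not called.

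Mitochondrial fatty acid oxidation had 3 of 21 tested genes higher and 1 lower (median log2 fold change 0.32), and 4 and 0 without both B libraries. With the replicate letter as a block 8 were higher and 2 lower. Cpt1a, the carnitine transferase that admits fatty acids to mitochondria, had 205.7, 221.7 and 194.5 normalized reads in DMSO and 682.8, 683.9 and 513.2 in ML-792 (1.60, SE 0.15, adjusted p = 1.57e-07). Its muscle form Cpt1b (1.79, adjusted p = 0.0153) and the thiolase Acaa2 (1.45, adjusted p = 1.46e-05) were higher. The most abundant members, Hadh and Hadha, were not called. Abcd2, a peroxisomal transporter of very long chain fatty acids that was on none of the lists, had 381, 314.3 and 371.9 in DMSO and 3642, 6324 and 4317 in ML-792 (3.74, SE 0.28, adjusted p = 4.77e-09). Ppargc1a, the coactivator of mitochondrial biogenesis, had 130.4, 134.3 and 153.6 in DMSO and 470.3, 640.7 and 385.6 in ML-792 (1.84, SE 0.25, adjusted p = 2.37e-05). Every ML-792 library was above every DMSO library for each of the higher genes named here.

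Of the 21 adipokines and secreted adipocyte proteins tested, 6 were higher and 4 lower, 6 and 3 without both B libraries. Leptin, Adipoq and Cfd were joined by the phospholipid transfer protein Pltp (121.4, 179 and 153.6 normalized reads in DMSO, 1275, 1119 and 988.4 in ML-792, log2 fold change 2.90, SE 0.19, adjusted p = 1.26e-09), the acute phase gene Saa3 (2.06) and the Wnt antagonist Sfrp5 (1.49). Apln, which encodes apelin, was lower (551.8, 668.3 and 558.5 in DMSO, 164.6, 176.4 and 150.7 in ML-792, -1.85, SE 0.21, adjusted p = 2.13e-06), as was Nampt (-0.87). Retn, which encodes resistin, was not called (-0.23, adjusted p = 0.767).

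**Figure D2:**
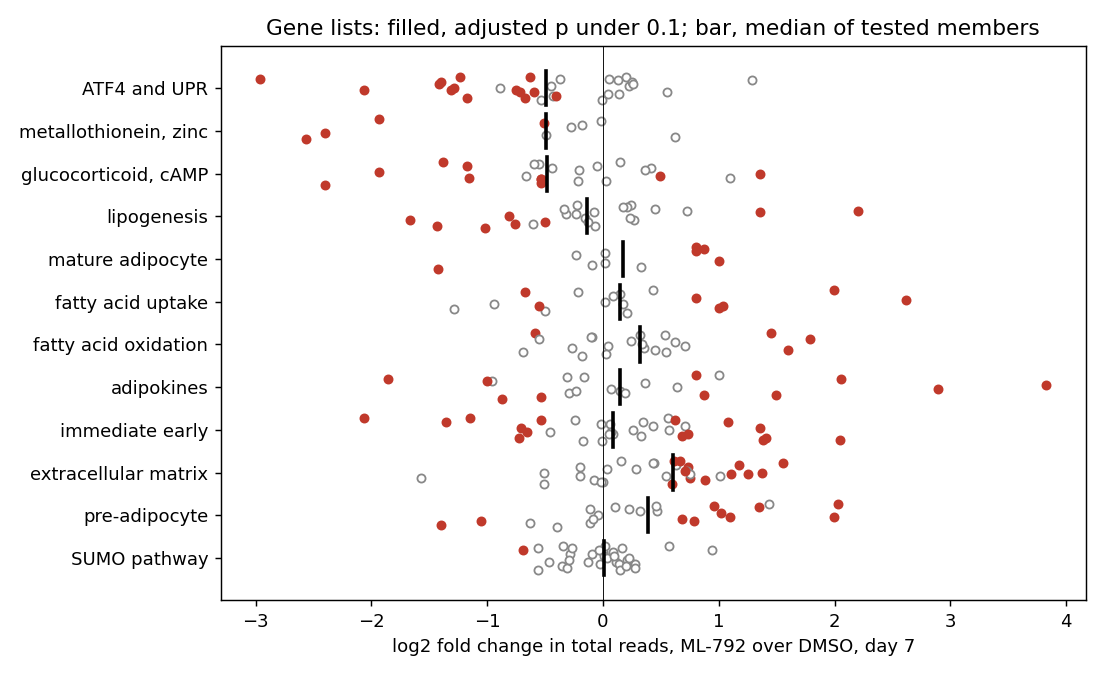
Log2 fold change of total reads (ML-792 over DMSO, day 7) for the tested members of 12 gene lists. Filled points passed an adjusted p under 0.1, open points did not, and bars mark the medians, which run from -0.49 in the 3 uppermost lists to 0.60 for extracellular matrix; height within a band carries no value.

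Extracellular matrix genes that were called in the main fit were all higher. Of 30 tested 12 were higher and 0 lower, against 6.35% and 5.45% of all genes tested, with a median log2 fold change of 0.60, the largest median of the 12 lists plotted. The count was 6 without both B libraries and 6 to 11 when 1 library was left out, the fewest without DMSO B. With the replicate letter as a block 16 were higher and 2 lower. Postn, which encodes periostin, had 1534, 988.8 and 1302 normalized reads in DMSO and 2807, 3536 and 3584 in ML-792 (1.38, SE 0.18, adjusted p = 1.66e-05). Thbs2, which encodes thrombospondin 2, had 210.2, 166.5 and 209.3 in DMSO and 605.4, 540.5 and 572.9 in ML-792 (1.55, SE 0.15, adjusted p = 1.57e-07). Sparc, a collagen-binding glycoprotein, had 36890, 41700 and 38350 in DMSO and 63730, 58320 and 63630 in ML-792 (0.67, SE 0.15, adjusted p = 0.0071). In all of these the groups were apart. Col11a1 (1.25) and Eln (1.18, lost in all 6 fits that left out one library) were also higher, and Col4a1 was not called (0.29, adjusted p = 0.253).

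Pre-adipocyte and fibroblast markers were higher in 8 of 22 and lower in 2, 8 and 1 without both B libraries, with a median log2 fold change of 0.39. Ccl2 and Ccl7, chemokines that attract monocytes, led: Ccl2 had 30.35, 48.92 and 29.57 normalized reads in DMSO and 135.1, 140.8 and 171.1 in ML-792 (2.03, SE 0.35, adjusted p = 0.000515), and Ccl7 had 75.3, 41.64 and 64.83 in DMSO and 181.8, 214.4 and 327.2 in ML-792 (1.99, SE 0.26, adjusted p = 1.19e-05). The metastasis-linked S100a4 (1.35), the receptor of mesenchymal progenitors Pdgfra (1.10), the hyaluronan receptor Cd44 (0.95, adjusted p = 6.11e-05) and the chemokine Cxcl12 (0.68, adjusted p = 0.018) were higher too, with the call of Cxcl12 lost without ML-792 C (adjusted p = 0.101). Dlk1, the classical inhibitor of adipogenesis that marks pre-adipocytes, was lower, with 2937, 2877 and 3482 in DMSO and 1745, 1005 and 1726 in ML-792 (-1.05, SE 0.26, adjusted p = 0.0137). The other that fell was the proteoglycan Lum (-1.40), and the abundant Vim was not called.

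Read against the cells' own earlier change, the 1289 genes that had fallen from day -2 to day 3 in DMSO (adjusted p under 0.01 and a change of over 2 on the log2 scale) were higher with ML-792 in 222 and lower in 62, with a median log2 fold change of 0.33. The 830 genes that had risen were lower in 126 and higher in 82, with a median of -0.08. Over all genes tested 6.35% were higher and 5.45% lower. Without both B libraries these counts were 143 and 39, and 66 and 54. These classes were set on DMSO libraries of other days, which the comparison at day 7 does not use.

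Regulators of adipogenesis were called in both directions, against 6.35% higher and 5.45% lower of all genes tested. Of 24 adipogenic transcription factors 4 were higher and 1 lower, 3 and 1 without both B libraries. With the replicate letter as a block 5 were higher and 5 lower. The genes named here are calls of the main fit. Zfp423, a determinant of pre-adipocytes, had 356.3, 393.5 and 345.8 normalized reads in DMSO and 654.6, 827.2 and 604.2 in ML-792 (log2 fold change 0.93, SE 0.20, adjusted p = 0.00347), and the other higher ones were Srebf1, Ppargc1a and Cebpd (0.49, adjusted p = 0.0731). Pparg, the master regulator, had 10260, 1739 and 10880 in DMSO and 12440, 6188 and 14170 in ML-792 (0.52, SE 0.46, adjusted p = 0.632). Both B libraries were the lowest of their group, and the groups overlapped. Within each replicate letter ML-792 was above DMSO, and the main fit did not pair by letter. The glucocorticoid-induced Klf9, the most abundant member, was not called. Among 18 anti-adipogenic regulators 4 were higher, with Gata3 (2.05) leading, and 4 lower, with Ddit3 (-1.42) and Dlk1 leading, and 1 and 2 without both B libraries.

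Immediate early genes, which respond to growth factors and stress within minutes and have short-lived mRNAs, moved both ways in total reads. Of 31 tested 8 were higher and 7 lower, against 6.35% and 5.45% of all genes tested. The counts of the list were 5 and 4 without both B libraries. With one library left out they were 5 to 8 and 4 to 6, the fewest higher without DMSO B or DMSO C. Fosb (74.18, 40.59 and 95.54 normalized reads in DMSO, 345.1, 191.6 and 329.9 in ML-792, log2 fold change 2.05, SE 0.46, adjusted p = 0.00637) and Egr3 (1.41, adjusted p = 0.000482) were higher, and so was Myc (1.38, adjusted p = 0.0829, lost in 4 of 6 fits that left out one library). Lower were Atf3, Jund (2107, 1869 and 2028 in DMSO, 770, 834.9 and 737.2 in ML-792, -1.36, SE 0.17, adjusted p = 5.99e-06) and Rgs2, a brake on G protein signalling, with 24160, 24320 and 24540 in DMSO and 10710, 9672 and 12570 in ML-792 (-1.15, SE 0.17, adjusted p = 7.05e-05). None of these had overlapping groups.

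Genes of the SUMO system itself gave 1 call in total reads. Of 32 tested, 0 were higher and 1, the SUMO ligase Nsmce2, was lower (-0.69, adjusted p = 0.0849, lost in 5 of 6 fits that left out one library), with a median log2 fold change of 0.01. Without both B libraries none was called by edgeR, and with the replicate letter as a block 0 were higher and 3 lower. Sumo3 (0.23, adjusted p = 0.759) and Trim28 (-0.29, adjusted p = 0.775), the most abundant, were not called. Of 31 silencing factors that work with SUMO 2 were higher, Atf7ip (1.04) and Mbd1 (1.15), which act together with the H3K9 methyltransferase SETDB1, and 1 was lower, Gps2 (-0.76, adjusted p = 0.0515). Of 25 germline genes listed as silent in somatic cells, 3 had enough reads to test and 15 had no read in any of the 6 libraries. Ddx4, a marker of germ cells, had 2.248, 2.082 and 0 normalized reads in DMSO and 13.51, 12.69 and 17.65 in ML-792 (3.21, SE 0.60, adjusted p = 0.00106). These are low counts, with no more than 13 raw reads in any library. Nor was Ddx4 silent throughout the time course without ML-792. The DMSO libraries of day 1 averaged 143.7 normalized reads, above every ML-792 library of day 7.

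The calls of other programs are set against 6.35% higher and 5.45% lower of all genes tested. Of 30 interferon-stimulated genes 4 were higher, among them the ISG15 protease Usp18 (1.87), and 2 were lower, with Isg20 (-1.58) leading (4 and 1 without both B libraries). Of 36 cell cycle genes 2 were higher and 2 lower (1 and 1 without both B libraries), and Ccnd1, the G1 cyclin, stood out, with 1614, 1655 and 1350 normalized reads in DMSO and 5886, 5361 and 5674 in ML-792 (log2 fold change 1.87, SE 0.13, adjusted p = 1.85e-09). Ccnd2 was higher by 0.43 (adjusted p = 0.0679, lost in 5 of 6 fits that left out one library), and Top2a, a marker of dividing cells, was not called (-0.59, adjusted p = 0.12). Of 23 genes of p53 and arrest 4 were higher, with Sesn1 (1.29) leading, and 1 was lower, the stress cytokine Gdf15 (-2.41), against 2 and 1 without both B libraries, while Mdm2 and Cdkn1a were not called. Of 20 NRF2 antioxidant genes 3 were lower, with Slc7a11 and heme oxygenase Hmox1 (-1.12, adjusted p = 0.0386, lost in 3 of 6 fits that left out one library) leading, and 2 were without both B libraries and 0 to 2 with one library left out. Cholesterol synthesis had 2 higher and 1 lower of 23, and branched-chain amino acid breakdown 2 higher and 1 lower of 25. Among 23 actin-linked targets of SRF and YAP 1 was higher, Lats2 (0.77), and 1 lower, Tpm2 (-0.83, adjusted p = 0.0826, lost in all 6 fits that left out one library). Among the markers of other cell types, Csf1r of macrophages (2 reads in DMSO and 28 in ML-792, adjusted p = 0.0925, lost in 4 of 6 fits that left out one library) and Des of muscle (-1.52, adjusted p = 0.00726, and 0.257 without both B libraries) were called. Endothelial, macrophage and bone marker lists otherwise held no call, and their part in the results above was not tested.

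Labelled reads made up less of each ML-792 library. The labelled share was 1.08%, 0.926% and 1.08% in DMSO (mean 1.03% ± 0.0869, SD, n = 3) and 0.860%, 0.802% and 0.849% in ML-792 (0.837% ± 0.0310, SD, n = 3). All 3 ML-792 libraries were below all 3 DMSO libraries, with a difference of -0.19 percentage points. A two-sided exact permutation test gave p = 0.1, the smallest that its 20 splits allow. Replicate by replicate the difference was -0.215, -0.125 and -0.229 points. The share counts reads with at least 1 conversion and includes a background of sequencing errors and variants that the tables do not separate.

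**Figure D3:**
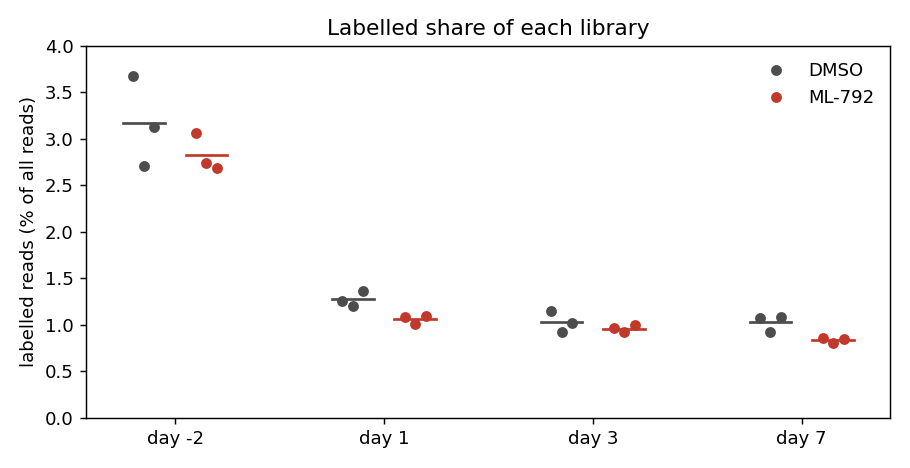
Labelled reads as a percentage of all reads in each of the 24 libraries, by day (DMSO dark, ML-792 red, 3 libraries each, lines at the means). At day 7 the 3 ML-792 libraries lie between 0.802% and 0.860%, below the 3 DMSO libraries between 0.926% and 1.08%.

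Gene by gene, most calls in labelled reads were lower. With the library sizes of the total reads, 5 of 6214 genes tested were higher (0.0805%) and 56 were lower (0.901%), and the median log2 fold change was -0.37, with 68% of genes below 0. When labelled reads were scaled by their own total and TMM factors, the median was -0.09 and 20 genes were higher and 39 lower, 44 of these 59 being among the 61. Without both B libraries 0 were higher and 19 lower. Leaving out one library gave 27 calls without ML-792 B, 31 without DMSO A, 33 without ML-792 C, 35 without DMSO C, 38 without ML-792 A and 49 without DMSO B. Of the 61 genes, 37 were called in the same direction in total reads, 23 were not called there and 1 was called in the opposite direction, and 4.61% of the total calls that could be tested in labelled reads were called there.

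**Figure D4:**
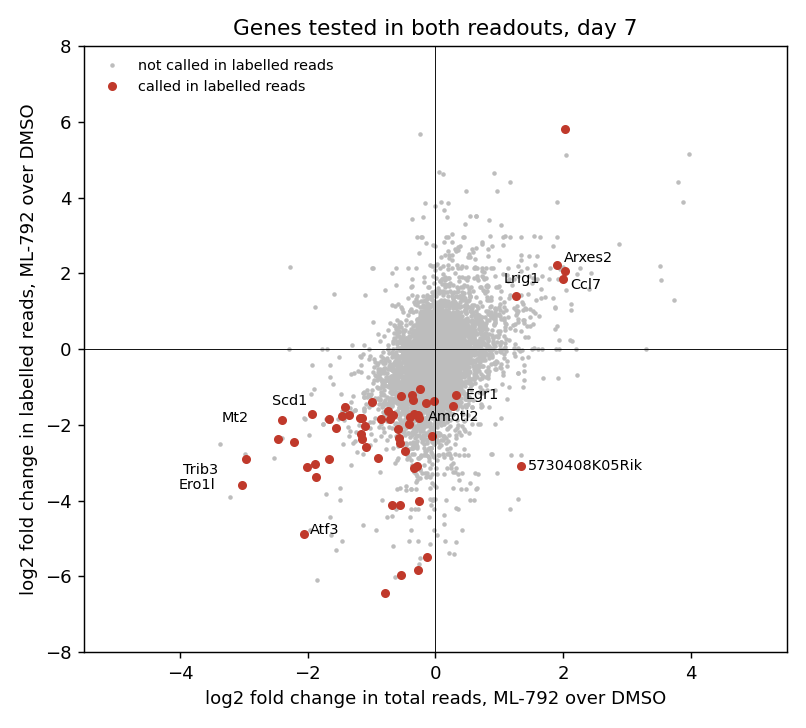
Log2 fold change (ML-792 over DMSO, day 7) in total reads (x axis) and labelled reads (y axis) for the 6214 genes tested in both. Red points are the 61 genes called in labelled reads, 56 below 0 and 5 above, and the names mark examples given in the text. Values of genes with no labelled read in one group depend on the prior count of the fit.

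Several genes that fell in total reads also fell in labelled reads. Mt2 had 1391, 1142 and 1523 normalized labelled reads in DMSO and 407.7, 272.8 and 419.5 in ML-792 (log2 fold change -1.88, SE 0.27, adjusted p = 4.34e-05), and Mt1 fell by 1.71 (adjusted p = 6.99e-05). Trib3 had 220.3, 190.5 and 219.5 in DMSO and 47.89, 11.42 and 24.44 in ML-792 (-2.90, SE 0.49, adjusted p = 0.000739). Scd1 had 572.1, 691.2 and 524.4 in DMSO and 183, 171.3 and 146.6 in ML-792 (-1.83, SE 0.33, adjusted p = 0.000739). Hspa5 had 302.3, 323.7 and 317.3 in DMSO and 109.3, 92.62 and 101.8 in ML-792 (-1.63, SE 0.29, adjusted p = 0.000739), so the B library that stood out in its total reads did not in its labelled reads. Rgs2 had 509.1, 598.5 and 652.9 in DMSO and 183, 120.5 and 198.2 in ML-792 (-1.81, SE 0.29, adjusted p = 0.00016). No ML-792 library overlapped DMSO for any of these.

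By list, 6 of 28 ATF4 and unfolded protein response genes tested were lower in labelled reads, 7 of 31 immediate early genes, 4 of 18 glucocorticoid and cAMP genes and 2 of 6 of metallothioneins and zinc handling, with 0 higher in each. Over all genes tested in labelled reads 0.901% were lower and 0.0805% higher, with a median log2 fold change of -0.37. Leaving out both B libraries gave 4, 4, 3 and 2 lower. Scaled by labelled reads the numbers lower were 5, 4, 3 and 2. The 30 extracellular matrix genes had 27 tested with no call by edgeR, a median of 0.21, and 2 higher when scaled by labelled reads. Mature adipocyte markers had no call among 9.

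Among the steepest labelled falls were the ER oxidase Ero1l (57.32, 56.21 and 58.01 normalized labelled reads in DMSO, 9.824, 2.538 and 1.358 in ML-792, log2 fold change -3.59, SE 0.73, adjusted p = 0.00651), the imprinted retrotransposon-derived gene Peg10 (20.23, 24.98 and 25.02 in DMSO, 2.456, 0 and 4.073 in ML-792, -3.37, adjusted p = 0.00651) and the netrin receptor Unc5b (-3.03, adjusted p = 0.0111). All of these were also lower in total reads. Egr1, an immediate early zinc finger factor, had 259.6, 200.9 and 309.4 labelled in DMSO and 93.33, 96.43 and 139.8 in ML-792 (-1.22, SE 0.26, adjusted p = 0.00761). Its total reads were 2814, 2518 and 2853 in DMSO and 2642, 3870 and 3764 in ML-792 (0.33, adjusted p = 0.476), so its groups were apart in labelled reads and overlapped in total reads. Amotl2, a YAP target, likewise fell by 1.74 in labelled reads (adjusted p = 0.00761, lost without ML-792 C at 0.12) and not in total reads (-0.27, adjusted p = 0.404).

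The 5 genes higher in labelled reads were Arxes2 (2.21, adjusted p = 0.0147), Ccl2 (2.07, adjusted p = 0.0905), Ccl7 (1.85, adjusted p = 0.0524), the growth factor receptor inhibitor Lrig1 (1.41, adjusted p = 0.0511) and the pseudogene-like Gm5886, which had 0 labelled reads in DMSO and so no measured fold. Gm5886 lies outside the naming rule and is given to complete the 5. Arxes2, an adipocyte gene regulated by PPARG that has a near-identical neighbour, had 15.73, 20.82 and 15.92 normalized labelled reads in DMSO and 94.56, 91.35 and 58.38 in ML-792. All 5 were called higher in total reads, and each lost its labelled call without both B libraries.

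The labelled share of each gene, tested as the change of labelled against unlabelled reads within the 6 libraries, was lower in 4 of 2271 genes (0.176%) and higher in 0 (0%), with 13 higher and 293 lower at an unadjusted p under 0.05. The median was -0.33 on the log2 scale, and -0.04 with labelled reads scaled to the labelled total of each library, which left 2 genes higher and 3 lower. The 4 genes were 5730408K05Rik (-4.40, adjusted p = 0.0415), Abcd2 (-2.45), Egr1 (-1.63) and Actb (-0.83), all but the first at an adjusted p of 0.0846. No gene was called by edgeR in 4 of the 6 fits that left out one library (without DMSO A or any ML-792 library) or without both B libraries, 2 were without DMSO C and 5 without DMSO B. Egr1 had 9.37% of its pooled reads labelled in DMSO and 3.2% in ML-792. Abcd2 had 3% and 0.548%, on total reads that had risen 3.74 on the log2 scale. The noncoding gene 5730408K05Rik was the gene called in opposite directions: 685.6, 985.7 and 729.1 total reads in DMSO against 1992, 2250 and 1814 in ML-792 (1.33), and 193.3, 230 and 25.02 labelled reads in DMSO against 13.51, 21.57 and 17.65 in ML-792 (-3.08). DMSO C lay near the ML-792 libraries in labelled reads, far below DMSO A and B.

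To see where day 7 differs from the nearest earlier stage, the effect of ML-792 at day 7 was set against its effect at day 3, which rests on other libraries. The difference itself was tested: in total reads 291 genes (2.19%) had a higher and 298 (2.24%) a lower log2 effect at day 7 than at day 3, and 231 and 173 without both B libraries. Both metallothioneins had a lower effect at day 7 than at day 3. Mt1 changed by -1.93 at day 7 and -0.46 at day 3 (adjusted p = 0.245), a difference of -1.47 (adjusted p = 0.00952). Mt2 changed by -2.40 at day 7 and -0.13 at day 3 (adjusted p = 0.74), a difference of -2.27 (SE 0.23, adjusted p = 2.08e-06), and its mean normalized reads were 29300 in DMSO and 26730 in ML-792 at day 3, against 105400 and 19950 at day 7. Of 22 glucocorticoid and cAMP genes 8 had a lower and 3 a higher effect at day 7. Ero1l (-3.03 and -0.83, difference -2.20, adjusted p = 8.85e-05), Peg10 (-1.86 and -0.01, difference -1.86, adjusted p = 1.17e-05), Slc2a1 (-1.10 and -0.10, adjusted p of the difference 0.00708) and Scd1 (difference -1.19, adjusted p = 0.0386) also had a lower effect at day 7.

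Other genes had a higher effect at day 7 than at day 3. Adipoq was higher with ML-792 at day 7 (0.80) and lower at day 3 (-0.89, adjusted p = 0.0106), a difference of 1.69 (SE 0.32, adjusted p = 0.00329). Retn was lower with ML-792 at day 3 (-2.82, adjusted p = 1.11e-06) and not called at day 7 (-0.23), a difference of 2.59 (adjusted p = 0.000907). Nr4a1 was not called at day 3 (-0.28, adjusted p = 0.551) and was higher at day 7 (1.36), a difference of 1.64 (adjusted p = 0.0034). Ccl7 (difference 2.44, adjusted p = 0.000253) and Cxcl12 (difference 1.38, adjusted p = 0.00233) had a higher effect at day 7 as well. Over all genes tested, 2.19% had a higher and 2.24% a lower effect at day 7, the shares for the list counts of this difference. Adipocyte lists were split: 5 adipokines of 21 had a higher and 2 a lower effect at day 7. For lipid droplet proteins these were 1 and 3 of 16, with Cidea lower (difference -3.24, adjusted p = 0.00548). For triglyceride genes they were 0 and 4 of 19, with Gpd1 lower (difference -1.69, adjusted p = 0.00104). Of the immediate early genes 13 of 31 had a higher and 1 a lower effect at day 7 than at day 3, with a median difference of 0.81 against 0.00 over all genes. Lower at day 7 than at day 3 was the effect on Ly6a, the stem cell antigen Sca-1, with 1.02 against 3.54 (difference -2.53, adjusted p = 2.08e-06), on the collagen cross-linker Lox (-0.11 against 1.83, difference -1.94, adjusted p = 3.66e-06) and on Aqp7 (1.90 against 4.16, difference -2.26, adjusted p = 0.026). The ATF4 and unfolded protein response list had 2 higher and 1 lower among 30. The lower one was Trib3, whose fall of 2.96 at day 7 compared with 1.67 at day 3 (difference -1.29, adjusted p = 0.0136).

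In labelled reads, 0 genes had a higher (0%) and 1, Fn1, a lower effect (0.0161%) at day 7 than at day 3, with 148 higher and 387 lower at an unadjusted p under 0.05. DESeq2 called 6 higher and 27 lower. Fn1, which encodes fibronectin, had mean normalized labelled reads of 13.2 in DMSO and 61.9 in ML-792 at day 3, and 14.4 and 8.91 at day 7 (difference -2.89, SE 0.55, adjusted p = 0.00964). Its call was lost without ML-792 C of day 7 (adjusted p = 0.116).

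**Figure D5:**
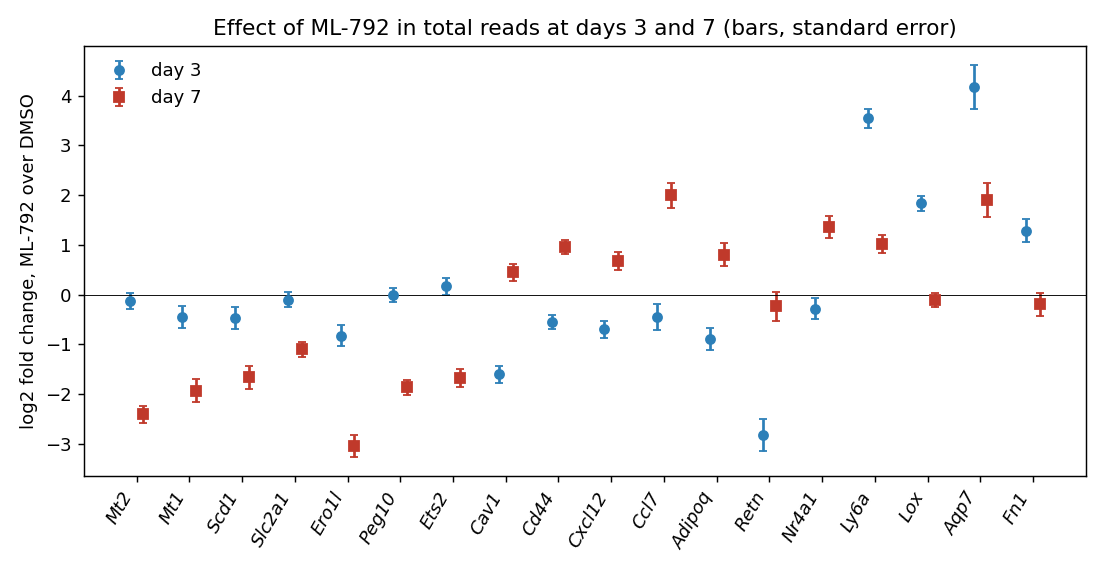
Log2 fold change of total reads (ML-792 over DMSO) at day 3 and at day 7 for 18 genes, with bars of 1 standard error. Mt2 and Ero1l lie lower at day 7, Adipoq, Retn and Ccl7 higher, and Ly6a, Lox and Fn1 lie higher at day 3 than at day 7.

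Several genes that the study names were not called in total reads at day 7. The paper shows Lipe, Ywhag and Klf13 as examples from labelled reads and SUMO binding over the time course, so measure and test differ here. It names Klf3, Klf5 and Klf10 for the time course without ML-792. Scd1 and Rgs2, for which the paper reports the ML-792 effect by qPCR, were called lower here in total and in labelled reads. Rxra, the partner of PPARG, changed by -0.11 (SE 0.18, adjusted p = 0.825), and the hormone-sensitive lipase gene Lipe by -0.09 (SE 0.20, adjusted p = 0.883). In labelled reads at day 7 Lipe changed by 0.07 (adjusted p = 0.984) and Klf3 by -0.59 (adjusted p = 0.633), and neither was called by edgeR. In total reads the adaptor gene Ywhag (-0.29, adjusted p = 0.602) and the Kruppel-like factors Klf13 (0.41, adjusted p = 0.452), Klf3 (-0.43, adjusted p = 0.734) and Klf5 (-0.66, adjusted p = 0.437) had replicates that spread widely, with letter B the lowest in each group of Klf3, Klf5 and Klf13. Klf10 was called higher (0.68, SE 0.23, adjusted p = 0.0719) and was lost in 4 of 6 fits that left out one library.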

How the data were processed

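Total and newly made RNA were measured by SLAMseq with QuantSeq 3′ libraries. According to the methods, the authors aligned single reads to mm10 and counted them in RefSeq 3′UTR entries with SlamDunk. The deposited values are raw counts per entry, without normalization: total reads, and labelled reads with at least 1 T to C conversion. The submitters' notes name bcl2fastq 2.17.1.14 for demultiplexing. Each table held 91830 entries of 26995 gene symbols, and 6 columns that match no sample were not used. Column names match the sample titles.

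Counts of all 24 libraries (8 groups of day and treatment) entered one fit in edgeR 4.0.16 (R 4.3.3), after filterByExpr (minimum count 10, minimum total 15), with TMM factors of the total counts used for labelled counts too. The quasi-likelihood test compared ML-792 with DMSO at day 7, and that effect with the effect at day 3, and p was adjusted by Benjamini and Hochberg over all entries, with a threshold of 0.1. Of several entries of a gene, the one with the most total reads on average is given. Normalized reads are counts over the effective library size, times the mean effective size of the 24 libraries. The labelled share of a gene was tested as labelled against unlabelled reads over 12 columns from the 6 libraries, with the library as a block. Alternatives used DESeq2 1.42.0, other filters and scalings, fewer libraries and the replicate letter as a block. The fits were tested on simulated data with known changes. Intervals on read ratios cover counting error only, and reads carry no molecular identifiers.

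Members and gene lists were chosen with earlier results of these data known. Named genes are, for total and labelled reads, the 12 with the largest change each way among those called (mean of at least 100 normalized total or 15 labelled reads in the higher group), up to 5 each way for the labelled share and the day difference, the 4 largest called and the 2 most abundant members of each list, and genes the study names. Others (among them Herpud1, Asns, Slc7a5, Mthfd2, Sgk1, Pde4d, Tsc22d3, Fkbp5, Fasn, Elovl5, Fads3, Dgat2, Tbc1d4, Pfkfb3, Tpi1, Nampt, Sfrp5, Retn, Pdgfra and the further genes set against day 3) were chosen after their values were seen.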

Additional observations from a re-analysis of the deposited data

Results flagged for a closer look

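For 10 genes in total reads and 1 in labelled reads, the effect of ML-792 at day 7 differed from its effect at day 3 when the difference itself was tested in the edgeR fit, and these are the largest such differences each way. The values are log2 differences, day 7 minus day 3.

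Among the higher ones, Pip differed by 5.68 (SE 0.62, adjusted p = 6.6e-06): its mean normalized reads were 2538 in DMSO and 29.7 in ML-792 at day 3, and 17.5 and 10.3 at day 7. Ren1, the renin gene, differed by 3.45 (adjusted p = 0.0529), with means of 1355 and 106.3 at day 3 and 8.49 and 7.24 at day 7, so both genes were at low levels by day 7 in both groups. Fsd2 differed by 3.54 (adjusted p = 0.0259), Smim5 by 3.51 (adjusted p = 0.00576) and Myh11, a smooth muscle myosin, by 3.47 (adjusted p = 0.0724). Those 3 were lower with ML-792 at day 3 and not called at day 7. The call of Myh11 was lost in 5 of the 6 fits that left out one library of day 7 and without both B libraries, and that of Ren1 in 3 of these 6 (without DMSO B, DMSO C or ML-792 B), without both B libraries and with only the 12 libraries of days 3 and 7.

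Among the lower ones, Ghrh differed by -6.91 (SE 1.67, adjusted p = 0.0249) and Mreg by -5.55 (adjusted p = 0.00721). Ghrh had mean normalized reads of 0.735 in DMSO and 2.02 in ML-792 at day 3, against 1588 and 31.1 at day 7, so most of its signal appeared between these days in DMSO. Mreg had 13.6 and 16.1 at day 3 and 271.6 and 6.81 at day 7. Slc22a20 differed by -4.87 (adjusted p = 0.0695) and lost its call in all 6 such fits and without both B libraries. Krtdap differed by -5.04 (adjusted p = 0.0166), with means of 10 in DMSO and 241.3 in ML-792 at day 3 and 1.82 and 1.31 at day 7, and lost its call without both B libraries. Cyp4b1 differed by -4.73 (adjusted p = 0.0648). It had no read in DMSO at day 3, so its fitted value depends on the prior count, and the call was lost in 4 of the 6 fits that left out one library. In labelled reads Fn1 differed by -2.89 (adjusted p = 0.00964, lost without ML-792 C and with only the 12 libraries of days 3 and 7), on 13.2 and 61.9 mean normalized reads at day 3 and 14.4 and 8.91 at day 7.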

How the results depend on the processing

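No direction that was called turned under an alternative. In total reads, the 1566 calls became 877 without both B libraries (799 shared), 792 with an absolute log2 fold change above 1, and 1124 to 1301 with one library left out. DESeq2 called 1977 (1536 shared). For the effect at day 7 minus that at day 3, the 589 calls in total reads became 898 with DESeq2 and 401 to 514 with one library left out. In labelled reads, the 61 calls became 118 with only the 6 libraries of day 7 (fewer genes tested), 19 without both B libraries, 144 with DESeq2 (54 shared), and 27 to 49 with one library left out. The 1 labelled call of the day difference became 5 with no filter on low counts, 7 with only the 12 libraries of days 3 and 7, 2 without both B libraries, 33 with DESeq2 and 0 to 2 with one library left out. The 4 calls of the labelled share became 34 with a minimum count of 20, 1 at an adjusted p under 0.05, 0 without both B libraries and 0 to 5 with one library left out. The cause was not tested, other than the fewer genes or libraries these settings leave. The library share difference ran from -0.24 to -0.164 points with one library left out. Of 141 named genes called in total reads, 97 kept their call in each fit without one library and 105 without both B libraries. In labelled reads these were 13 and 14 of 36. Libraries held 115709 to 186237 labelled reads, and whether that depth sets these numbers was not tested.

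The correlation of deviations between libraries of the same letter was -0.0143 for A, 0.183 for B and 0.168 for C in total reads. In labelled reads it was 0.0385, 0.0829 and 0.031. Between unlike letters it ran from -0.206 to 0.0736 in total reads and from -0.0528 to 0.0166 in labelled reads. The same letter was thus above every unlike pair for B and C in total reads and for all letters in labelled reads. These correlations were at most 0.183, while the second principal component of total reads (21.1% of the variance) set letter B apart. The main fit did not use the letter, so a gene not called there may be called once the letter is in the fit. With the letter as a replicate block, total calls were 2872 (1565 of the 1566 kept) and labelled calls 154 (61 of 61 kept). Under the same block, the day difference gave 1451 calls in total and 25 in labelled reads. At day 7 in total reads, the block gave 4 higher and 9 lower glucocorticoid and cAMP genes. It gave 10 higher and 3 lower pre-adipocyte markers, 2 and 8 lipogenesis genes, and 10 and 8 immediate early genes.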
